A study of Mus musculus with 4 samples.

Results

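The genes described here are the NF-kappaB subunits, the adaptor Tifa and inhibitors of the pathway, 10 genes chosen by name: Nfkb1, Nfkb2, Rel, Rela, Relb, Nfkbia, Nfkbiz, Tnfaip3, Bcl3 and Tifa. They were chosen with earlier results of these data known. Every probe set that the array annotation gives to exactly 1 of them was taken, which gave 17 of the 45101 probe sets on the array and covered 9 of the 10 genes. Nfkb1 was not analysed here. RNA came from the colon epithelium of 4 mice, 1 array for each mouse. All 4 mice carried floxed Stat3 alleles (Stat3flfl), in which recombination by Cre removes part of the gene, and all had drunk 2.5% dextran sodium sulphate (DSS), which damages the lining of the colon, for 5 days. The 2 Cre-positive mice also carried Cre driven by the villin promoter (VillinCre+), which is active in intestinal epithelial cells and not in the leukocytes or stroma of the gut. The 2 Cre-negative mice lacked it (VillinCre-). No array of a mouse without DSS was analysed here, and the labels give no age, sex or strain background.

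NF-kappaB is a family of dimeric transcription factors held in the cytoplasm by inhibitor proteins of the IkappaB kind. Receptors for bacterial products, tumour necrosis factor and interleukin 1 activate a kinase complex that has the inhibitor destroyed, and the dimers then enter the nucleus. Among the genes they switch on are those of their own inhibitors, so that the response limits itself. In the gut epithelium this pathway is known both for protecting the barrier and for driving inflammation.

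Values are log2 of the authors' GC-RMA intensities, and each difference is the Cre-positive mean minus the Cre-negative mean of those log2 values. A fit over 27022 probe sets, those above the 40th percentile of mean signal (log2 2.80), was made with limma, and p-values were adjusted by Benjamini-Hochberg over all of them. With 2 arrays a group, the smallest two-sided p that an exact permutation test allows is 0.333. The labels call the arrays biological replicates. Array 1 of the Cre-positive group stood farthest from the others, with correlations over the tested probe sets of 0.968 to 0.982 against 0.988 to 0.991 among the other 3 arrays. As a measure of RNA quality, 3-prime over 5-prime signal lay at 1.27 to 1.42 (Actb) and 0.782 to 0.992 (Gapdh). The targeted gene Stat3, by its brightest probe set, measured log2 9.28 and 8.16 in Cre-positive arrays 1 and 2 and 10.46 and 10.50 in Cre-negative arrays 1 and 2, a difference of -1.75 (limma adjusted p = 0.340). Another Stat3 probe set differed by -1.57, and a dimmer one went the opposite way, at 6.82 and 6.11 in the Cre-positive and 5.60 and 4.75 in the Cre-negative arrays (1.29, limma adjusted p = 0.440). The labels do not say which exons are floxed, so the size of the deletion cannot be read from these probe sets. The epithelial markers were all above the filter (12 of 12, among them Epcam, Cdh1 and Vil1), and all 6 endothelial markers lay below it.

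Of the 8 genes tested, Tifa had the largest difference by its brightest probe set, and it stood lower in both mice that carried Cre. The subunits Nfkb2, Rela and Relb and the inhibitors Nfkbia, Tnfaip3 and Nfkbiz by their brightest probe sets had differences of the means of at most 0.27, and array 1 of the Cre-positive group was the highest of all 4 arrays for each of them. A second probe set of Nfkbiz had a larger difference, 0.90. Bcl3 stood slightly lower and Rel was near the bottom of the scale. In limma 0 member probe sets passed the adjusted threshold of 0.05, as did 0 of all 27022 (0%).

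**Figure D1:**
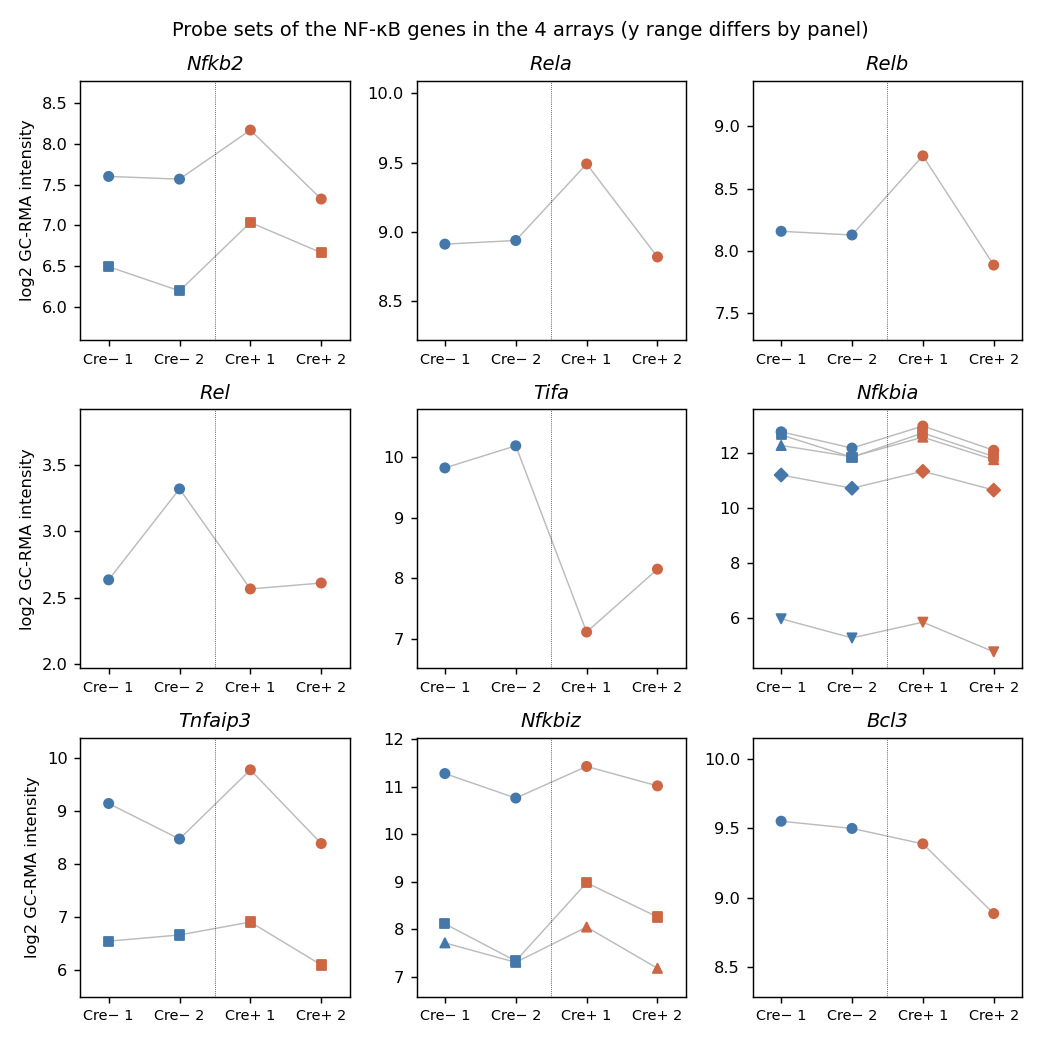
Log2 GC-RMA intensity of each probe set (marker shape) in the 4 arrays, Cre-negative in blue and Cre-positive in orange, 1 panel a gene, with grey lines that only join values of 1 probe set. The Tifa values of 7.11 and 8.15 in the Cre-positive arrays lie below the 9.82 and 10.19 of the Cre-negative arrays, whereas Rela, Relb and Nfkb2 peak in Cre-positive array 1.

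Promoter sequence is shown for 4 genes. Tifa is shown because it had the largest difference among the tested members. Nfkbia, Tnfaip3 and Nfkb2, picked after the search, show where the matches lie in members that held them. The stretches are the 250 bases before the annotated start in RefSeq (GRCm38.p6), 5′ to 3′ on the strand of the gene: chr3:127789622-127789871 on the plus strand for Tifa, chr12:55492648-55492897 on the minus strand for Nfkbia, chr10:19015411-19015660 on the minus strand for Tnfaip3 and chr19:46304487-46304736 on the plus strand for Nfkb2. Capitals mark letters that match the NF-kappaB consensus, or TTCNNNGAA, the spaced palindrome that STAT proteins bind.
Tifa: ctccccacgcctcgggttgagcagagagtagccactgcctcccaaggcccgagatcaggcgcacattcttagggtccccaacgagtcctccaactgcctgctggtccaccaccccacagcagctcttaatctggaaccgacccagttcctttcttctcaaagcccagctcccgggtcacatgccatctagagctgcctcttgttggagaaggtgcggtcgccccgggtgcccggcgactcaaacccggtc
Nfkbia: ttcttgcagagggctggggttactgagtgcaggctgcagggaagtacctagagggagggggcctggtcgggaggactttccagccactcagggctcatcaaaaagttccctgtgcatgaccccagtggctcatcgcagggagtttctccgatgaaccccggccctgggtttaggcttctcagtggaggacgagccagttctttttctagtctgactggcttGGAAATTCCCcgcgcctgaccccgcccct
Tnfaip3: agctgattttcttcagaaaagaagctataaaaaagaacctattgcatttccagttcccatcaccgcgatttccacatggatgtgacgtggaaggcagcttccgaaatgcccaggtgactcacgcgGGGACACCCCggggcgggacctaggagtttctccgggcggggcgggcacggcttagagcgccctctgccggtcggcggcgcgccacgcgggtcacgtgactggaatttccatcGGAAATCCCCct
Nfkb2: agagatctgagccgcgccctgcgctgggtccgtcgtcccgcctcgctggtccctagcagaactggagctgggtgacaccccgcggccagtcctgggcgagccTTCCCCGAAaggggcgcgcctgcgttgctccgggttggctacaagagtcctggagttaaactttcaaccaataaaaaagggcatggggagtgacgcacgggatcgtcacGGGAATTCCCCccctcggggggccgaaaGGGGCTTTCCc

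Both motifs were searched on both strands. Among the 32851 promoter windows of this length in the table, 7.25% held the NF-kappaB consensus and 7.02% held TTCNNNGAA. Of the members, 7 genes were in the table (Relb, Nfkbiz and Nfkb1 were not matched), with 11 windows between them, since some genes have several starts. The NF-kappaB consensus was in 6 of the 11 windows. By gene, 4 of the 7 held it in at least 1 window (Nfkbia, Tnfaip3, Nfkb2 and Rel), as did 8.23% of the 27025 genes in the table, and its letters were not in the windows of Rela, Bcl3 and Tifa. In Nfkbia the match was GGAAATTCCC, which begins at base -29 from the start, and in Tnfaip3 the matches GGGACACCCC and GGAAATCCCC begin at -125 and -12. Nfkb2 held overlapping matches on the 2 strands from -39 and another, GGGGCTTTCC, from -11, and it was the 1 member gene with a match to the STAT motif, TTCCCCGAA at -148. Neither of the 2 annotated starts of Tifa had the STAT letters in its window either. A match describes the letters only.

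Tifa encodes an adaptor with a forkhead-associated domain that binds TRAF6 and links bacterial sugar sensing by the kinase ALPK1 to NF-kappaB. Its probe set (1426501_a_at) measured log2 9.82 and 10.19 in Cre-negative arrays 1 and 2, and 7.11 and 8.15 in Cre-positive arrays 1 and 2. Both Cre-positive values were lower than both Cre-negative values, and the higher of them was still 1.67 below the lower Cre-negative array. In linear intensity the signal went from 906 and 1168 in the Cre-negative mice to 138 and 284 in the Cre-positive mice. The group means were 10.01 ± 0.26 and 7.63 ± 0.74 (SD, n = 2 per group). The difference of -2.38 (SE 0.44, 95% interval -3.72 to -1.04) is 5.19-fold, at an unadjusted limma p of 0.0100 and an adjusted p of 0.282, so it did not pass the threshold over all probe sets. It ranked 9 from the lowest among the 27022 differences. In the authors' deposited table the same probe set had an absolute fold of 5.19 with a p of 0.0498. Leaving out 1 array at a time gave differences from -2.90 to -1.86. This probe set was the only 1 of the 16 tested members with an unadjusted limma p under 0.05. At that level 8.52% of all tested probe sets were lower and 3.37% higher (2303 and 911 probe sets, or 1086 and 1009 with arrays centred on their medians). Among the 18015 probe sets above the 60th percentile of mean signal, 363 were lower and 615 higher.

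The Tifa difference did not pass the adjusted threshold, and it can come from variation between mice that is unrelated to Cre. It can also come from less Tifa RNA per epithelial cell or from a different mix of cells. Bulk tissue does not tell these apart. Leukocyte markers (Ptprc, Laptm5, Coro1a, Cd52, Cd53 and Lcp1), summed over 6 of 6 above the filter, gave an intensity of 1476 and 1672 in the Cre-positive arrays against 934 and 1158 in the Cre-negative arrays. Their part in the result was not tested. The epithelial list summed to 274300 and 239800 in the Cre-positive arrays and 222500 and 225900 in the Cre-negative arrays. The brightest genes weigh most in this sum. By gene, Epcam, Cdh1, Krt8, Muc2 and Car1 were higher in both Cre-positive arrays than in either Cre-negative array, and Elf3 was lower. For Krt18, Krt19, Krt20, Vil1, Cldn7 and Cdx2 the groups overlapped. The part of epithelial content in the Tifa difference was not tested.

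The probe sets whose profile over the 4 arrays was closest to that of Tifa, by Euclidean distance after centring each on its own mean, belonged to Fut9, Reg3b, Gatm, Cpn2 and Socs3, at distances of 0.357, 0.456, 0.551, 0.697 and 0.874. They were picked for this likeness, so it is a description over 4 arrays with no test. Reg3b, an antibacterial C-type lectin, measured 14.20 and 14.55 in Cre-negative arrays 1 and 2 and 11.07 and 12.03 in Cre-positive arrays 1 and 2. In both genes array 1 was the lower of the 2 Cre-positive arrays. Fut9, a fucosyltransferase, measured 5.59 and 5.57 in the Cre-negative arrays and 2.63 and 3.97 in the Cre-positive arrays, the former at the bottom of the scale. Gatm, an enzyme of creatine synthesis, measured 6.66 and 7.35 against 3.73 and 5.48. Cpn2, a carboxypeptidase N subunit, measured 4.89 and 5.20 against 2.95 and 3.74. The Socs3 probe set here, 1 of several for this feedback inhibitor of cytokine signalling, measured 4.92 and 5.64 against 2.93 and 2.79. Both Cre-positive values of Socs3, and the 2.95 of Cpn2, lay near the filter level of log2 2.80, at the bottom of the scale.

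Rela encodes p65, the subunit that carries the transactivation domain of the classical dimer. Its probe set (1419536_a_at) measured 8.91 and 8.94 in Cre-negative arrays 1 and 2, and 9.49 and 8.82 in Cre-positive arrays 1 and 2. The Cre-negative arrays lay close together, and the Cre-positive arrays lay 1 above and 1 below them. The difference of 0.23 (SE 0.28, 95% interval -0.61 to 1.07) had a limma adjusted p of 0.709. Without Cre-positive array 1 it turned to -0.11.

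Relb, a subunit of the alternative pathway that pairs with p52, also had Cre-positive array 1 as the highest and Cre-positive array 2 as the lowest value. It (1417856_at) measured 8.16 and 8.13 in the Cre-negative arrays and 8.76 and 7.89 in Cre-positive arrays 1 and 2. The difference was 0.18 (SE 0.36, 95% interval -0.91 to 1.27, limma adjusted p = 0.819), and it was -0.26 without Cre-positive array 1.

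Nfkb2 encodes p100, which is cut to p52 and otherwise holds RelB inactive. Its brighter probe set (1425902_a_at) measured 7.60 and 7.57 in the Cre-negative arrays and 8.17 and 7.32 in Cre-positive arrays 1 and 2, a difference of 0.16 (SE 0.35, limma adjusted p = 0.838) that was -0.26 without Cre-positive array 1. The dimmer one (1429128_x_at), of a kind that can bind other transcripts, measured 6.49 and 6.20 against 7.04 and 6.67. In this probe set both Cre-positive arrays were higher than both Cre-negative arrays. Its difference of 0.50 (SE 0.24, 95% interval -0.22 to 1.23) had a limma adjusted p of 0.513, and it was 0.32 to 0.69 with 1 array left out. The 2 probe sets of this gene therefore did not give the same picture of the second Cre-positive array.

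Rel, the subunit best known from lymphocytes, was close to the bottom of the scale. Its probe set (1420710_at) measured 2.63 and 3.32 in the Cre-negative arrays and 2.56 and 2.61 in the Cre-positive arrays, and was the 1 of 17 member probe sets that fell below the filter. No size is given for its difference, and it was not tested.

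Nfkbia encodes IkappaBalpha, the classical inhibitor and itself a target of NF-kappaB. Its brightest probe set (1438157_s_at) measured 12.77 and 12.17 in Cre-negative arrays 1 and 2, and 12.97 and 12.10 in Cre-positive arrays 1 and 2. The Cre-positive arrays enclosed both Cre-negative values, and in each group array 1 was higher than array 2. The difference was 0.065 (SE 0.42, 95% interval -1.21 to 1.34, limma adjusted p = 0.951). Of the other 4 probe sets, 1449731_s_at, 1420088_at and 1448306_at differed by 0.046, 0.098 and 0.034, and the dimmest, 1420089_at, by -0.31. All 5 had array 1 above array 2 in both groups, as did 29.9% of all tested probe sets, by 0.41 to 0.81 in the Cre-negative and 0.68 to 1.07 in the Cre-positive group. Since they measure 1 gene in the same RNA, they are not 5 observations of it.

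Tnfaip3 encodes A20, a ubiquitin-editing enzyme that ends NF-kappaB signalling and whose gene NF-kappaB induces. Its brighter probe set (1433699_at) measured 9.14 and 8.47 in the Cre-negative arrays and 9.78 and 8.39 in Cre-positive arrays 1 and 2. The lowest and the highest value both lay in the Cre-positive group, and the spread between the Cre-positive mice, 1.39, was wider than the difference of the means of 0.27 (SE 0.61, limma adjusted p = 0.841). That difference turned to -0.42 without Cre-positive array 1. The dimmer probe set (1450829_at) measured 6.55 and 6.67 against 6.91 and 6.10 and differed by -0.10 (limma adjusted p = 0.903).

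Nfkbiz encodes IkappaBzeta, a nuclear member of the inhibitor family that helps NF-kappaB switch on a secondary set of genes. The brightest of its 3 probe sets (1417483_at) measured 11.28 and 10.76 in the Cre-negative arrays and 11.43 and 11.02 in Cre-positive arrays 1 and 2, a difference of 0.20 (SE 0.27, limma adjusted p = 0.730). The second (1457404_at) measured 8.11 and 7.33 against 8.98 and 8.26. There both Cre-positive arrays were higher than both Cre-negative arrays, although array 2 exceeded Cre-negative array 1 by 0.14 alone. The difference of 0.90 (SE 0.43, 95% interval -0.41 to 2.20) is 1.86-fold with a limma adjusted p of 0.516. The third (1448728_a_at) measured 7.71 and 7.30 against 8.05 and 7.18, groups that overlapped, and differed by 0.10 (limma adjusted p = 0.912). The files do not say which transcripts of Nfkbiz each probe set reads.

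Bcl3 encodes another nuclear IkappaB protein, which works with p50 and p52 dimers. Its probe set (1418133_at) measured 9.55 and 9.50 in the Cre-negative arrays and 9.39 and 8.89 in Cre-positive arrays 1 and 2. Both Cre-positive arrays were lower, the first by 0.11 from the nearer Cre-negative array. The difference of -0.39 (SE 0.21, 95% interval -1.04 to 0.26) had a limma adjusted p of 0.546, and with 1 array left out it ranged from -0.64, without Cre-positive array 1, to -0.14, without Cre-positive array 2.

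**Figure D2:**
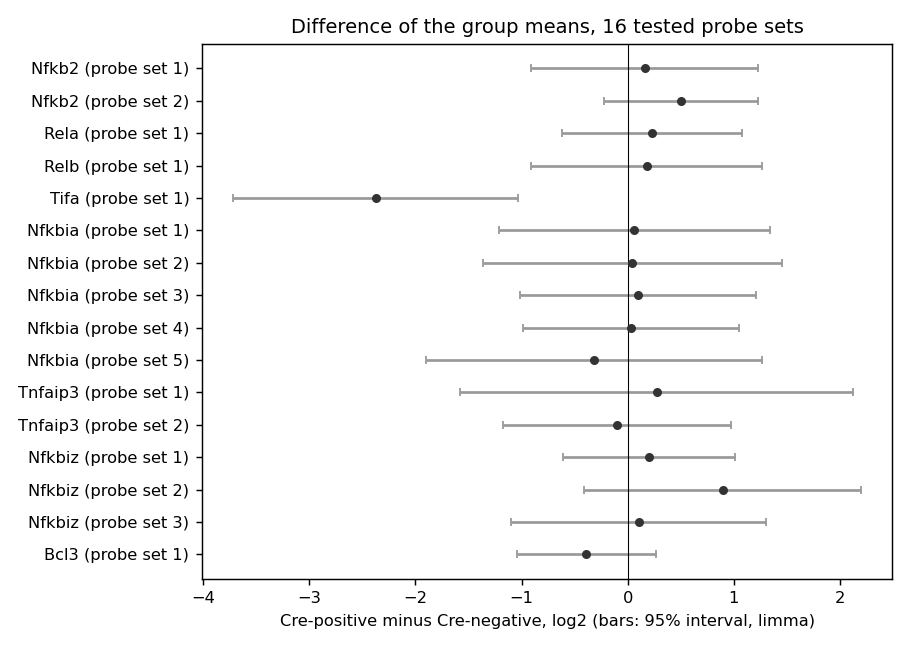
Difference of the group means on the log2 scale (points) with its 95% interval from limma (bars) for the 16 tested probe sets, numbered by brightness within a gene. The interval of Tifa, -3.72 to -1.04, is the one that does not include 0, before any adjustment for the number of probe sets.

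Over the 16 tested probe sets the mean was higher in the Cre-positive group in 12 and lower in 4, where 38.2% of all tested probe sets were higher and 61.8% lower. Probe sets of 1 gene read the same RNA and are not separate observations. By the brightest probe set, 6 of the 8 genes were higher and 2 lower, where 38.5% of all genes were higher. The median difference of the 16 probe sets was 0.10, against -0.056 over all tested. The 2 groups did not overlap in 2 higher probe sets, those of Nfkb2 and Nfkbiz described above, and in 2 lower ones, Tifa and Bcl3. Over all tested probe sets that held for 13.8% in the higher and 35.6% in the lower direction, and neither member count exceeds its background share. All these shares include probe sets dimmer than the members and were not matched for brightness. At an unadjusted limma p under 0.05, 2303 of 27022 probe sets were lower, but above the 60th percentile of mean signal 363 of 18015 were. Without Cre-positive array 1, 10 of the 12 higher probe sets turned lower. Apart from Tifa, the interval of every tested member probe set included 0 and reached 1.02 or farther in at least 1 direction, so these arrays do not show that the groups were alike.

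**Figure D3:**
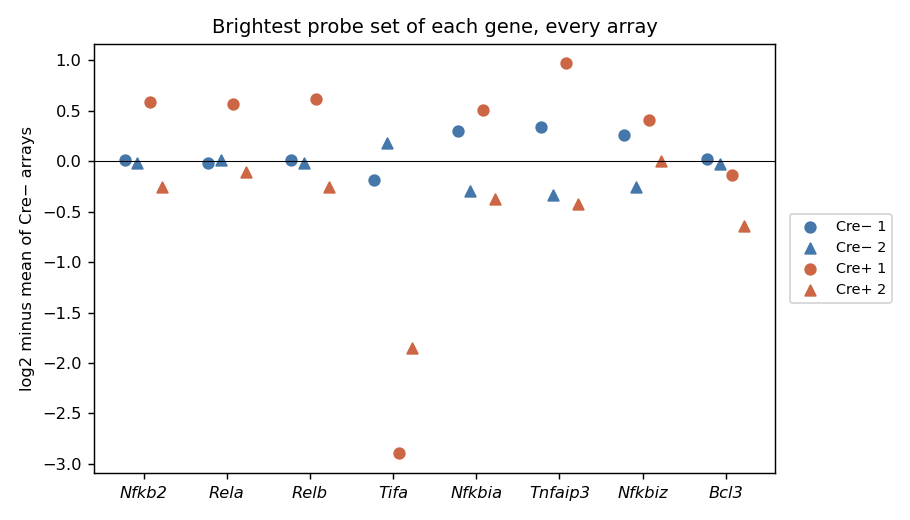
Distance of each array from the Cre-negative mean, in log2 units, for the brightest probe set of each gene, with circles for array 1 and triangles for array 2 of each group. Cre-positive array 1 lies highest for 6 of the 8 genes, at 0.41 to 0.97 above the Cre-negative mean, and lowest for Tifa at -2.90.

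By the brightest probe set, 6 of the 8 tested genes were highest in Cre-positive array 1, as were 25% of all 12669 genes tested in this way. Nearby gene lists, described further on, showed it too: 57.1% of the other inhibitors, 55.2% of the upstream adaptors and kinases, 43.8% of the STAT3 pathway list, 42.3% of the target genes and 35.3% of the receptors. This pattern was noticed after the values were seen and is a description of 1 array. That array stood above the Cre-negative mean by 0.57 for Rela, 0.58 for Nfkb2, 0.62 for Relb, 0.50 for Nfkbia, 0.41 for Nfkbiz and 0.97 for Tnfaip3. Cre-positive array 2 stood lower than the same mean for these genes, by 0.42 for Tnfaip3 at the most, and level with it for Nfkbiz. The arrays of the 2 Cre-positive mice thus lay on opposite sides of the control mean for Rela, Relb, Nfkb2, Nfkbia and Tnfaip3, and on the same side for Tifa and Bcl3.

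Of the neutrophil markers, S100a8 and S100a9 were highest in that array by a wide margin. Summed over the 6 markers with a probe set, their intensity was 1564 in Cre-positive array 1, 83.4 in Cre-positive array 2 and 129.5 and 77.1 in the Cre-negative arrays. Of these markers 3 were above the filter. S100a8 measured 9.70 in Cre-positive array 1 and 4.79 to 5.91 in the other arrays, and S100a9 measured 9.46 against 4.54 to 5.44. Csf3r lay at 3.38 to 3.49 in every array, and Cxcr2, Mmp8 and Ngp, which are more restricted to neutrophils, lay below the filter in each array. Macrophage and monocyte markers, with 8 of 11 above the filter and Cd68, Fcgr1 and Itgam below it, summed to 2015 and 1484 in Cre-positive arrays 1 and 2 and 1904 and 1876 in the Cre-negative arrays. Cd14, the brightest of them, differed by -0.36, whereas Lyz2 (0.85), C1qa (0.87) and C1qb (0.48) were higher in both Cre-positive arrays. Of the 8, 5 were higher and 3 lower, with a median of 0.24. B and plasma cell markers, with 2 of 7 above the filter, summed to 39.9 to 47.9 in all arrays, and T and NK cell markers, with 10 of 11 above it, to 1333 to 1654. The part of any of these cells in the subunit and inhibitor values was not tested.

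**Figure D4:**
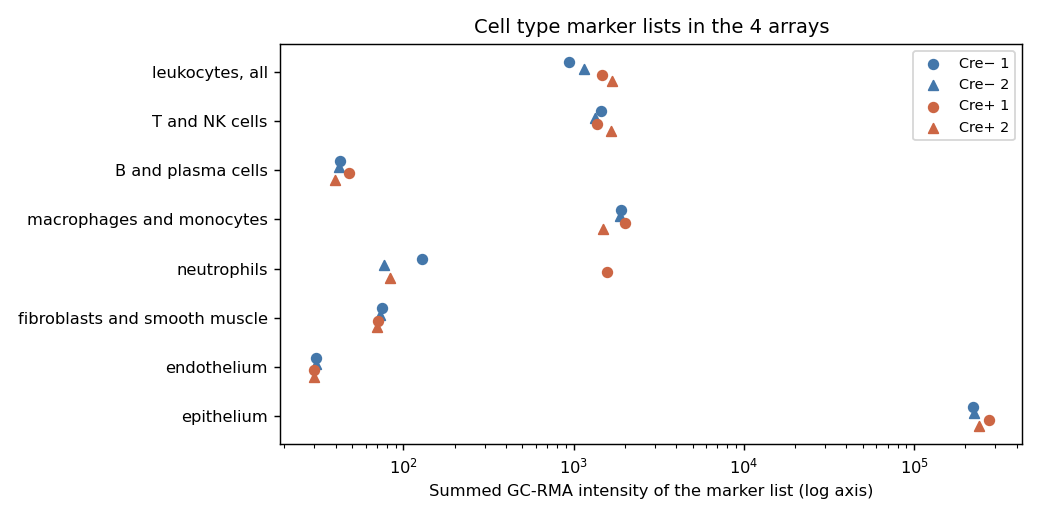
Summed GC-RMA intensity of the marker lists in each array on a log axis, Cre-negative in blue and Cre-positive in orange, with circles for array 1 and triangles for array 2. The neutrophil list reaches 1564 in Cre-positive array 1 and 77.1 to 129.5 in the other 3 arrays, and the leukocyte list is higher in both Cre-positive arrays.

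The genes around the members were read from 5 lists by their brightest probe set, of which 115 of 126 genes were named on the array. Adaptors and kinases upstream of NF-kappaB, the step at which Tifa acts, were higher in 19 of 29 tested genes and lower in 10, where 38.5% of all genes were higher, with a median of 0.079 against -0.053 over all genes. The shares over all genes include dimmer genes and were not matched for brightness. In limma 0 of these adaptors and kinases passed the adjusted threshold, and 0 were under 0.05 unadjusted in either direction, where 2.26% of all genes were higher and 7.82% lower. Those of smallest p were the IkappaB kinase relatives Ikbke (0.41, limma adjusted p = 0.557) and Tbk1 (0.17, limma adjusted p = 0.572) on the higher side, and Tank (-0.24, limma adjusted p = 0.475), which binds both kinases but had opposite signs in its 2 tested probe sets, and the scaffold Card10 (-0.18, limma adjusted p = 0.615) on the lower side. Traf6, the partner of Tifa named here for that role and not by rule, by its brightest probe set measured 5.91 and 6.05 in the Cre-negative arrays and 6.22 and 5.65 in Cre-positive arrays 1 and 2, a difference of -0.051 with groups that overlapped. Tifab, a relative of Tifa named likewise, lay below or just above the level of the filter in all arrays (2.73 to 2.82).

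Other inhibitors of the pathway were higher in 9 of 14 and lower in 5 (64.3% higher, against 38.5% of all genes). Their median was 0.073, with 0 under 0.05 unadjusted in limma. Itch, a ubiquitin ligase that acts with A20, differed by 0.14 and Tnip1, which binds A20, by 0.16, both higher in each Cre-positive array than in either Cre-negative array (limma adjusted p = 0.547 and adjusted p = 0.571). On the lower side stood Commd1 (-0.32, limma adjusted p = 0.586) and Tax1bp1 (-0.48, with groups that overlapped and 1 of 4 probe sets higher, limma adjusted p = 0.655). Receptors upstream were higher in 5 of 17 and lower in 12 (29.4% higher, against 38.5% of all genes). Their median of -0.049 was close to the -0.053 over all genes, with 0 under 0.05 unadjusted in limma. Ltbr, the lymphotoxin receptor that drives the alternative pathway, differed by -0.19 (limma adjusted p = 0.577), and Tnfrsf13c lay near the bottom of the scale at 3.35 to 3.74. Il17rc (0.48) and Egfr (0.32) were the higher genes of smallest p, with overlapping groups in both and 2 of 4 Egfr probe sets lower (limma adjusted p = 0.681 and adjusted p = 0.683).

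Target genes of NF-kappaB were split, with 12 higher and 14 lower of 26 tested (46.2% higher, against 38.5% of all genes). Their median was -0.050, against -0.053 over all genes. In limma 0 passed the adjusted threshold, 0 were higher at an unadjusted p under 0.05 and 3 were lower, 11.5% of the list against 7.82% of all genes. Ccnd1, the G1 cyclin, measured 10.45 and 10.43 in the Cre-negative arrays and 10.09 and 9.94 in the Cre-positive arrays, a difference of -0.43 (SE 0.10, limma adjusted p = 0.313), and all 3 of its tested probe sets were lower. Cxcl5, a chemokine with the smallest p among the lower genes (limma adjusted p = 0.301), was dim throughout at 3.38 to 3.67. Icam1, the other of the 3, was dim too, at 3.03 to 3.55. On the higher side Cflar, an inhibitor of caspase 8, differed by 0.60 (limma adjusted p = 0.421) and Xiap, another caspase inhibitor, by 0.52 (limma adjusted p = 0.499), but 3 of the 5 tested Cflar probe sets and 4 of the 7 for Xiap had the opposite sign. The 5 largest differences in the list, named after their values were seen, were of genes highest in Cre-positive array 1. Cxcl2, a chemokine that attracts neutrophils, measured 8.84 in that array and 3.53 to 4.34 in the others, Ptgs2, the inducible cyclooxygenase, 7.07 against 3.13 to 3.36, and Cxcl3 6.70 against 3.63 to 3.77. Il1b measured 9.49 there and 6.12 to 6.88 elsewhere, and Cxcl10, with groups that did not overlap, 9.58 and 7.29 in the Cre-positive and 7.23 and 6.32 in the Cre-negative arrays. Their limma adjusted p-values were 0.556 to 0.625. Cxcl1, next in size, went the other way (-1.04). It measured 6.62 and 3.68 in Cre-negative arrays 1 and 2 and 5.31 and 2.91 in Cre-positive arrays 1 and 2, with groups that overlapped. The median of the target list was 0.15 above the Cre-negative mean in Cre-positive array 1 and -0.14 from it in array 2. The STAT3 pathway list had 8 higher and 8 lower of 16 (50% higher, against 38.5% of all genes). Its median was 0.027 and, in limma, 0 were at the adjusted threshold. Unadjusted, 1 of them was higher and 4 were lower at a p under 0.05 (6.25% and 25% of the list, against 2.26% and 7.82% of all genes). Like the other lists, this list was chosen with earlier results of these data known, so the shares are a description and not a test. The 4 lower ones were Stat3, which is the targeted gene itself, Socs3, Reg3b and Reg3g. Of these Reg3b differed by -2.83 (limma adjusted p = 0.271) and Reg3g by -3.26 (limma adjusted p = 0.290). Among the higher genes of the list, the kinase genes Jak1 and Pim1 differed by 0.31 (limma adjusted p = 0.389) and 0.74 (limma adjusted p = 0.540). Of the 3 tested Jak1 probe sets, 1 went the other way.

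**Figure D5:**
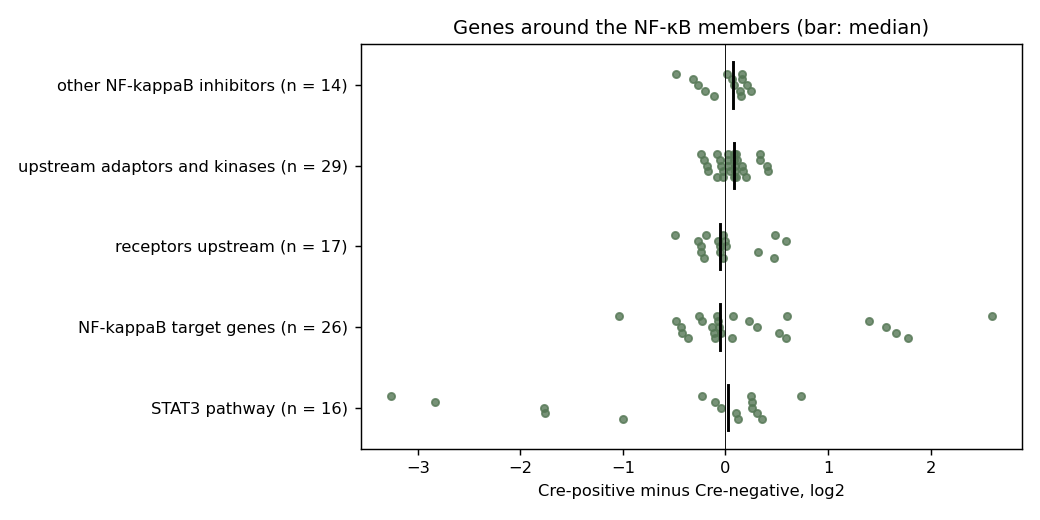
Difference of the group means on the log2 scale for each tested gene of the 5 lists by its brightest probe set (points), with the median of the list (bar). The medians lie between -0.050 and 0.079, and the spread is widest among the target genes and the STAT3 pathway list.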

How the data were processed

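RNA of colon epithelium from 2 Cre-negative and 2 Cre-positive mice was hybridised to 1 array per mouse. The deposited intensity values, on the linear scale, came from GC-RMA, per the submitters' processing notes. The authors' second table holds the same intensity values rounded (they differed by at most 0.5), log2 values relative to a baseline, an absolute fold (a ratio) and a p-value per probe set, per the file headers, and the test behind the p-value is not named there. No source used here names the array type or software version.

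Probe sets were named through the array annotation: 34945 had 1 gene, 932 several, 9160 were unnamed here and 64 were controls. Symbols were updated through gene identifiers (34741 matched). Log2 intensities of probe sets above the 40th percentile of the mean (log2 2.80, intensity 6.98) were fitted with limma 3.58.1 in R 4.3.3 (lmFit, eBayes with an intensity trend, two-sided, Benjamini-Hochberg, threshold 0.05, 2 residual degrees of freedom plus 1.27 from the prior). The fit was tested on simulated data. At the adjusted threshold it recovered a share of 0.224 of the probe sets changed by 2 log2 units and 0.6 of those changed by 3. False calls averaged 2.4 and 5.4 a run. Other genes in lists were read by their brightest probe set in the same fit. Named by rule were all member probe sets, Stat3, the 2 genes of smallest p per list and direction, and the 5 genes most like Tifa. The members and lists were chosen with earlier results of these data known. The alternatives were other filters (none, or the 60th percentile), centring, quantile normalization, a pseudocount of 16, 1 value per gene, no trend, a replicate block and leaving out each array.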

Additional observations from a re-analysis of the deposited data

How the results depend on the processing

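In limma 0 probe sets passed the adjusted threshold in the reported fit (smallest adjusted p 0.106, with 3214 at an unadjusted p under 0.05) and under all alternatives but 1. With 1 array left out the count ranged from 0 to 167, the latter without Cre-positive array 2, and no member was among the calls. Tifa kept its direction in all 13 alternatives (adjusted p 0.0648 without the filter to 0.766 with the 60th percentile filter), as did Bcl3 and the Nfkb2 and Nfkbiz probe sets with groups apart, in those alternatives that gave a value. The remaining 12 probe sets turned sign when 1 array was left out. Their ranges were -0.37 to 0.50, -0.38 to 0.47, -0.31 to 0.51, -0.31 to 0.38 and -0.85 to 0.22 for the 5 Nfkbia probe sets from bright to dim, -0.42 to 0.97 and -0.51 to 0.30 for Tnfaip3, -0.055 to 0.46 and -0.33 to 0.54 for Nfkbiz, -0.26 to 0.58 for Nfkb2, -0.11 to 0.57 for Rela and -0.26 to 0.62 for Relb. The mean of all Nfkbia probe sets gave -0.014. At an unadjusted p under 0.05, where 911 were higher and 2303 lower, the number lower was 14888 without a filter, 363 above the 60th percentile, 1086 with arrays centred, 1345 after quantile normalization and 1126 without a trend. With 1 probe set a gene 322 were higher and 1088 lower, and with the mean of a gene's probe sets 307 and 789, where fewer were tested. With 1 array left out 404 to 2895 were higher and 1794 to 3914 lower, the highest of both without Cre-positive array 2. The cause was not tested. With the replicate number as a block 0 probe sets passed (smallest adjusted p 0.434), and 1417 were higher and 1663 lower unadjusted. Within-group differences between arrays 1 and 2 correlated at 0.455 between the genotypes. The labels do not say that numbers pair mice. The block changed no adjusted call, but with it 2 member probe sets in place of 1 had an unadjusted p under 0.05, Tifa (0.00416) and the second of Nfkbiz (0.0094, adjusted p 0.434). The 2 arrays a group limit every value, and Rel is limited by its signal near the bottom of the scale.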
